A study of Mus musculus with 24 samples.

Results

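The comparison described here is that of differentiating *Kat6a*–/– with differentiating *Kat6a*+/– neural stem and progenitor cells (NSPCs), which asks what loss of the second allele adds to loss of the first. Its libraries were chosen by their genotype and condition labels, and it holds 8 of the 24 RNA sequencing libraries of the series, 4 of each genotype. Each library was made from the NSPCs of 1 C57BL/6 mouse embryo, isolated at E12.5 from the dorsal telencephalon, grown as neurospheres with FGF2 and EGF, and then kept for 3 days on a poly-L-ornithine and laminin coat in medium with 1% serum. Per the study's methods the null allele lacks several exons and carries a premature stop within the catalytic domain, and embryos came from intercrosses of *Kat6a*+/– mice. The numbers in the library names are read here as litter and embryo, which the sample titles do not state. By that reading the *Kat6a*–/– replicates 1 and 2 came from litter 4633, replicate 3 from litter 4746 and replicate 4 from litter 5063. The *Kat6a*+/– replicates 1 to 4 came from litters 4633, 4746, 4809 and 4844. The 4 differentiating *Kat6a*+/+ libraries shared the fit, and the proliferating libraries of the same genotypes, which were kept in growth factors, are the nearest other comparison.

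KAT6A (MOZ) is a histone acetyltransferase of the MYST family that works in a complex with BRPF scaffold proteins, ING5 and MEAF6, acetylates histone H3 and is associated with active promoters. It is known for its part in haematopoietic stem cells, in body segment identity through HOX genes and in restraining cellular senescence through repression of the *Cdkn2a* locus. NSPCs of the dorsal telencephalon divide while growth factors are present, and after their withdrawal they leave the cell cycle and give rise to neurons, astrocytes and oligodendrocyte lineage cells.

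Library totals of the 8 mutant libraries lay between 14836869 and 20246346 counts. Markers of the neural lineages were present in all 8 libraries, with *Sox2* at 249 to 487, *Olig1* at 529.5 to 1368, *Gfap* at 148 to 1879 and *Tubb3* at 32.0 to 63.9 counts per 1000000 counts (CPM). Whole-gene counts were not taken as a check of the genotype, since the null allele lacks some of the exons and not the whole gene. *Kat6a* was at 240.2, 227, 255 and 214 CPM in *Kat6a*+/– and at 160.4, 249.8, 163 and 187 CPM in *Kat6a*–/– NSPCs, and the ranges overlapped. One *Kat6a*+/+ embryo label did not match between conditions in its sex-linked reads, and without that differentiating library 4733 genes were called in place of 5007. The *Kat6a*–/– libraries differed more among themselves than the *Kat6a*+/– libraries. On the first principal component of the 12 differentiating libraries, which held 47.2% of the variance, *Kat6a*–/– replicates 1 and 3 lay at 79.3 and 69.6 and replicates 2 and 4 at 17.4 and 24, whereas the *Kat6a*+/– libraries lay between −33.2 and −2.17. Replicate 2 also stood apart on the second component, at −72.8.

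**Figure D1:**
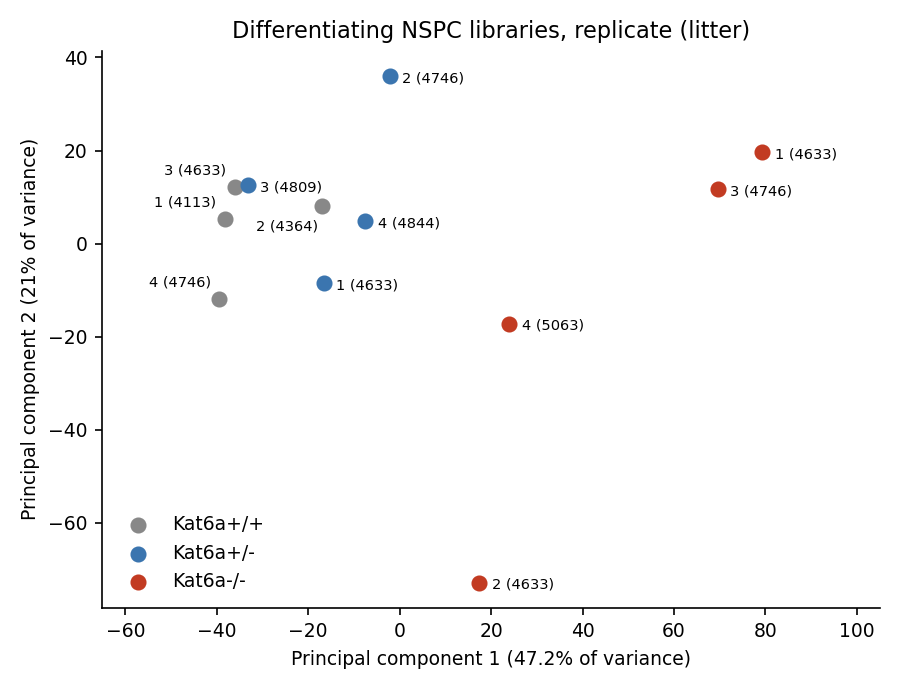
First and second principal component (percent of variance on each axis) of the 12 differentiating libraries. Each point is 1 library, labelled with its replicate number and litter, and the 4 *Kat6a*–/– libraries (red) lie to the right of all *Kat6a*+/– (blue) and *Kat6a*+/+ (grey) libraries, with replicate 2 apart at the bottom.

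Transcript levels in *Kat6a*–/– vs. *Kat6a*+/– NSPCs differed over a large part of the genome, but how many genes passed depended on how much each library counted. With the library quality weights that the study's pipeline uses, 5007 of 13339 tested genes (37.5%) passed a limma false discovery rate (FDR) of 5%, 2545 higher (19.1%) and 2462 lower (18.5%) in *Kat6a*–/– NSPCs. In that fit 69.0% of the weight given to *Kat6a*–/– libraries fell on replicate 3 and 4.22% on replicate 2. When the weights were estimated gene by gene, an alternative chosen after the data were seen, replicate 3 held 48.7% of it and 2761 genes passed. With equal weights 1616 genes (12.1%) passed, 630 higher (4.72%) and 986 lower (7.39%). Scaling by library totals in place of TMM, with weights, gave 1869 genes higher and 4030 lower and moved the median over all tested genes to −0.12 (log2). The weighted and the unweighted fit both called 1562 genes (11.7%), 605 higher (4.54%) and 957 lower (7.17%). All 4 *Kat6a*–/– libraries lay below all 4 *Kat6a*+/– libraries in 1256 genes (9.42%) and above them in 913 genes (6.84%).

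Littermates could be compared in 2 litters that share no library. All 1562 genes called by both fits differed in the same direction in litter 4633, where 2 *Kat6a*–/– embryos were set against 1 *Kat6a*+/– embryo, and in litter 4746, where each genotype had 1 embryo, although these libraries also entered the fits. Over all tested genes 73.3% had the same sign in both litters. The weights bear on most groups of genes below: 345 genes were called in the weighted fit without *Kat6a*–/– replicate 1 and 243 without replicate 3, and in these 2 fits the estimation of the weights stopped before it converged. Without weights the same omissions left 1093 and 993 genes. Counts of called genes in the lists are therefore given with weights, without weights, and without each of these replicates. Counts and FDRs given without a replicate come from the weighted fit unless stated otherwise. The background for the list counts is the share of all tested genes, 19.1% higher and 18.5% lower with weights. Without weights it is 4.72% and 7.39%.

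Genes of cell division were lower in *Kat6a*–/– than in *Kat6a*+/– NSPCs. Of 50 tested genes for G2 and mitosis, 49 fell in both fits and in both litters, and in all 49 the 4 *Kat6a*–/– libraries lay below the 4 *Kat6a*+/– libraries. The median log2 fold-change of the list was −2.70 with and −2.84 without weights, against 0.00158 and 0.00967 over all tested genes. The list's summed level was 2844, 3784, 3865 and 2512 CPM in *Kat6a*+/– NSPCs, against 650, 409, 628 and 1004 CPM in *Kat6a*–/– NSPCs. Without *Kat6a*–/– replicate 1 or 3, 48 and 47 members were still called, and 44 were called with litter as a term in the model, which called 2.89% of all tested genes (2.19% as lower). In bulk RNA, fewer dividing cells and less RNA per dividing cell cannot be told apart.

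*Mki67*, which encodes the proliferation antigen Ki-67, was at 211, 258, 298 and 174 CPM in *Kat6a*+/– and at 19.7, 8.74, 19.1 and 48.6 CPM in *Kat6a*–/– NSPCs. It fell by 3.45 on the log2 scale (SE 0.28, FDR 3.2e-05), with log2 differences of −3.99 within litter 4633 and −3.75 within litter 4746. *Top2a*, the topoisomerase that untangles sister chromatids, was at 248, 314, 344 and 190 CPM in *Kat6a*+/– and at 30.1, 13.1, 30.3 and 64.0 CPM in *Kat6a*–/– NSPCs (log2 fold-change −3.04, SE 0.25, FDR 3.2e-05). In both genes *Kat6a*–/– replicate 4 was the highest of its group and still lay well below the lowest *Kat6a*+/– library.

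Other members of the list fell as well. *Aurkb*, the kinase of the chromosomal passenger complex, fell by 3.38 (SE 0.30), from between 28.6 and 54.6 CPM to between 2.93 and 9.56 CPM. *Cenpf* and *Knl1*, which act at kinetochores, both fell by 3.38 (SE 0.27 and 0.31). *Tpx2*, a spindle assembly factor, fell by 2.72 (SE 0.21), the kinesin gene *Kif4* fell by 2.50 (SE 0.20) and the kinesin gene *Kif14* fell by 4.05 (SE 0.40). Outside the list, the helicase gene *Pif1* fell by 3.40 (SE 0.31) and the endonuclease gene *Ankle1* by 3.81 (SE 0.37). The FDR of these 8 genes lay between 3.2e-05 and 4.6e-05. The single list member that was higher was *Pttg1*, named here after its values were seen, which encodes securin: it was at 21.9, 20.8, 19.6 and 22.6 CPM in *Kat6a*+/– and at 27.6, 26.5, 34.5 and 24.4 CPM in *Kat6a*–/– NSPCs (log2 fold-change 0.57, SE 0.10, FDR 0.0018).

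**Figure D2:**
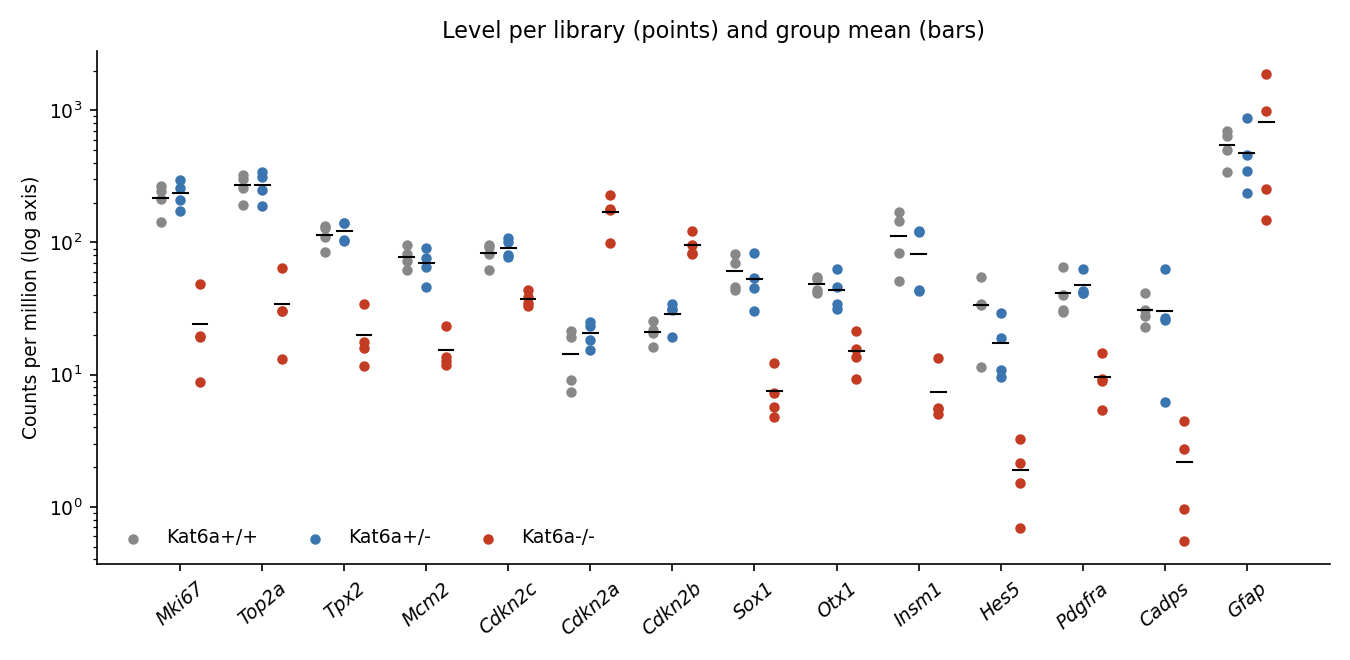
Level of 14 genes in each differentiating library in CPM on a log axis, with points for libraries and black bars for the mean of 4 libraries per genotype. In *Mki67*, *Top2a*, *Tpx2*, *Mcm2*, *Cdkn2c*, *Sox1*, *Otx1*, *Insm1*, *Hes5*, *Pdgfra* and *Cadps* the *Kat6a*–/– points lie below the *Kat6a*+/– points, in *Cdkn2a* and *Cdkn2b* they lie above them, and in *Gfap* the ranges overlap.

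Promoter sequences are shown for 4 of these genes, because many promoters of late cell cycle genes are known to hold a CHR element (TTTGAA) near the start site and CCAAT boxes upstream of it. The windows come from RefSeq (GRCm38.p6, a different build from that of the counts), reach from 250 bases before to 50 bases after a gene's start, and are printed on the strand of the gene from 10 bases before the first to 10 bases after the last match, with both motifs, on either strand, in capitals. They belong to *Mki67* (chr7:135716462-135716577, minus strand), *Cenpf* (chr1:189688069-189688228, minus strand), *Kif4* (chrX:100625903-100626099, plus strand) and the replication gene *Mcm2* (chr6:88898835-88898965, minus strand).
Mki67: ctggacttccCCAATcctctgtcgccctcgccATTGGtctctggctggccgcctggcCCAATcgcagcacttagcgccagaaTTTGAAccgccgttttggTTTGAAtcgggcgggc
Cenpf: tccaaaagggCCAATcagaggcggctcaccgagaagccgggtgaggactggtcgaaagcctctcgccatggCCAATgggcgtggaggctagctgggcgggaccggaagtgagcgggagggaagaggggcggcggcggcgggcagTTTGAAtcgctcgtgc
Kif4: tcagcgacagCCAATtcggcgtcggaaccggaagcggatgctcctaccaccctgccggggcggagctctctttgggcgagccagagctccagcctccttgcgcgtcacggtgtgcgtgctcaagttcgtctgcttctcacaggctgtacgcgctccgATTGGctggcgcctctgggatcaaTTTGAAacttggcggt
Mcm2: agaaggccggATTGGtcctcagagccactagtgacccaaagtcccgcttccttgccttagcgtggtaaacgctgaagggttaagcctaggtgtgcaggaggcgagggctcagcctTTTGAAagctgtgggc

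Both motifs were searched on both strands, and the matches printed above do not overlap. TTTGAA was in 31 of the 41 G2 and mitosis genes with a window (75.6%), in 5 of 37 genes for S phase and DNA replication (13.5%), in 1220 of 10495 tested genes (11.6%) and in 17.9% of all 32851 windows of the table. CCAAT was in 75.6%, 62.2%, 39.2% and 37.4% of the same sets. A window with both was held by 27 of the 41 G2 and mitosis genes (65.9%) and by 5.12% of the tested genes. It was held by 4 of the 37 S phase genes (10.8%), *Mcm2* among them, so that *Mcm2* is not typical of its list. Of 15 Fanconi and homologous recombination genes with a window 0 held both. A match describes the letters in the window and is not evidence of binding.

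Genes for S phase and DNA replication fell less far than those for mitosis. Of 46 tested members 43 fell with weights and 42 without, 40 had ranges that did not overlap, and all 46 were lower in both litters. The median log2 fold-change was −1.37 with and −1.35 without weights. In the weighted fits the call was lost more often when a library was left out, with 29 members called without *Kat6a*–/– replicate 1 and 20 without replicate 3. Without weights, 37 to 43 members were called when any 1 library was left out. *Mcm2*, a subunit of the replicative helicase, was at 65.6, 90.1, 76.9 and 46.0 CPM in *Kat6a*+/– and at 12.6, 11.9, 13.6 and 23.2 CPM in *Kat6a*–/– NSPCs (log2 fold-change −2.22, SE 0.20, FDR 3.2e-05). *Cdc45*, a helicase cofactor, fell by 2.09 (SE 0.20) and *Uhrf1*, which guides maintenance DNA methylation, by 2.53 (SE 0.24). The 3 members that did not pass with weights, named after their values were seen, were *Gins3* (log2 fold-change −0.40, FDR 0.074), *Gins4* (−0.13, FDR 0.35) and *Orc6* (−0.09, FDR 0.59).

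Genes for the Fanconi pathway and homologous recombination, which repair DNA during replication, were also lower. Of 21 tested members 18 fell with weights and 17 without, 19 had all *Kat6a*–/– libraries below all *Kat6a*+/– libraries, and 14 were called without *Kat6a*–/– replicate 1 and 14 without replicate 3. The median log2 fold-change was −2.14 with and −1.97 without weights. *Brca1* was at 23.6, 27.1, 29.8 and 14.8 CPM in *Kat6a*+/– and at 4.34, 1.73, 2.64 and 6.09 CPM in *Kat6a*–/– NSPCs (log2 fold-change −2.87, SE 0.28, FDR 3.9e-05). *Esco2*, a cohesin acetyltransferase, fell by 3.58 (SE 0.33), *Fanci* fell by 3.23 (SE 0.32) and *Fanca* by 2.74 (SE 0.25), all with an FDR of at most 3.9e-05. Levels of all 4 genes stayed below 7 CPM in every *Kat6a*–/– library.

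The inhibitors of cyclin-dependent kinases moved in different directions. Of 15 tested inhibitors, D cyclins and related genes, 4 rose and 7 fell with weights, and 2 rose and 5 fell without. Without *Kat6a*–/– replicate 1, and likewise without replicate 3, 2 rose and 3 fell. *Cdkn2a*, which encodes the INK4A and ARF proteins, was at 15.5, 23.3, 18.4 and 25.2 CPM in *Kat6a*+/– and at 229, 175, 178 and 98.8 CPM in *Kat6a*–/– NSPCs, so that the lowest *Kat6a*–/– library lay well above the highest *Kat6a*+/– library. It rose by 3.24 on the log2 scale (SE 0.35, FDR 7.9e-05), by 3.69 within litter 4633 and by 2.93 within litter 4746, and was called without *Kat6a*–/– replicate 1 (FDR 0.018) and without replicate 3 (FDR 0.028). Its neighbour *Cdkn2b*, which encodes INK4B and is named after its values were seen, was at 34.4, 31.4, 19.2 and 30.7 CPM in *Kat6a*+/– and at 95.2, 122, 81.8 and 83.9 CPM in *Kat6a*–/– NSPCs (log2 fold-change 1.51, SE 0.19, FDR 0.00019).

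Other inhibitors fell. *Cdkn1b*, which encodes p27, was at 162, 192, 186 and 172 CPM in *Kat6a*+/– and at 120.1, 91.7, 114 and 112 CPM in *Kat6a*–/– NSPCs (log2 fold-change −0.60, SE 0.07, FDR 0.00011). *Cdkn2c*, which encodes INK4C, fell by 1.26 (SE 0.15, FDR 0.00015) and the pocket protein gene *Rbl1* by 1.82 (SE 0.19, FDR 5.3e-05). Both fell from ranges that did not overlap those of *Kat6a*–/– NSPCs.

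Targets of p53 were higher in *Kat6a*–/– NSPCs, but far more so in 2 of the 4 libraries. Of 20 tested targets 16 rose with weights and 5 without, 0 fell, and 19 were higher in both litters. The 2 high libraries are replicate 1, in litter 4633, and replicate 3, the only *Kat6a*–/– library of litter 4746. The litter differences therefore rest largely on these libraries and are no separate support. Replicate 4, from litter 5063, does not enter them. The median log2 fold-change was 0.96 with and 0.71 without weights. Without *Kat6a*–/– replicate 1 the weighted fit called 1 and without replicate 3 it called 0. *Cdkn1a*, which encodes p21, was at 86.1, 181, 108 and 267 CPM in *Kat6a*+/– and at 955, 230.3, 594 and 237 CPM in *Kat6a*–/– NSPCs. Replicates 1 and 3 were high and replicates 2 and 4 lay within the *Kat6a*+/– range, so that *Cdkn1a* passed with weights (log2 fold-change 2.22, SE 0.39, FDR 0.0015) and not without (1.53, FDR 0.065). *Phlda3*, which dampens AKT signalling, was at 47.9, 80.9, 51.2 and 80.8 CPM in *Kat6a*+/– and at 346, 113, 244 and 98.7 CPM in *Kat6a*–/– NSPCs (log2 fold-change 2.00, SE 0.28, FDR 0.00045). The death receptor gene *Tnfrsf10b* rose by 2.34 (SE 0.41), the stress gene *Sesn2* by 0.91 (SE 0.14) and the nuclease gene *Aen* by 0.91 (SE 0.15), with the same 2 libraries highest.

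**Figure D3:**
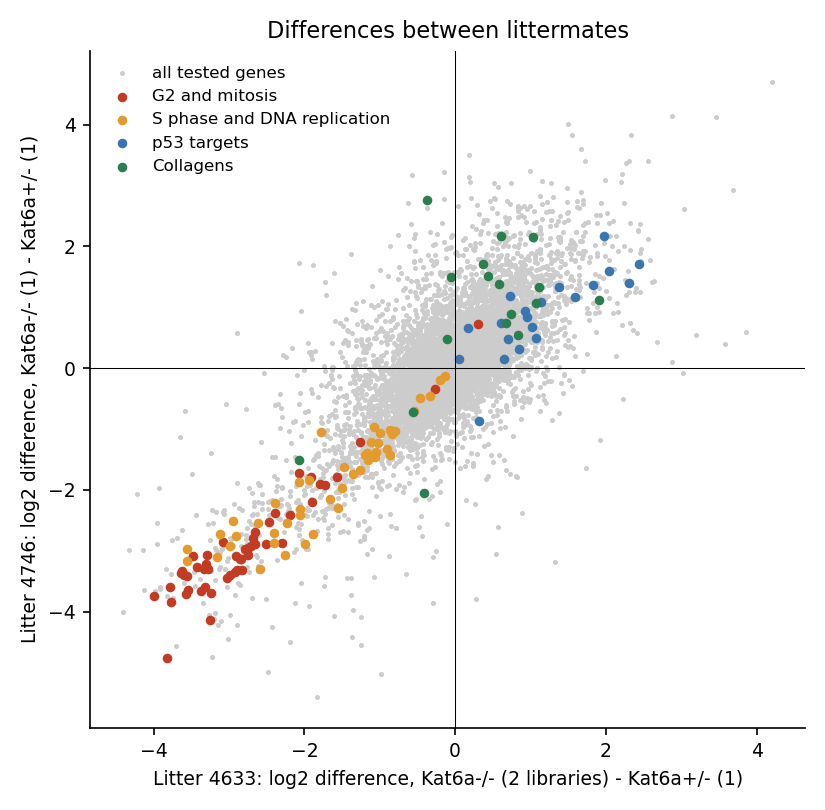
Log2 difference between *Kat6a*–/– and *Kat6a*+/– littermates in litter 4633 (horizontal axis) and litter 4746 (vertical axis), each point 1 tested gene and coloured points the members of 4 lists. Genes for G2 and mitosis (red) lie in the lower left apart from *Pttg1*, S phase genes (orange) all lie in the lower left, and 19 of the 20 p53 targets (blue) lie in the upper right. Litter 4633 includes *Kat6a*–/– replicate 1 and litter 4746 has replicate 3 alone, the libraries in which p53 targets were highest.

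Among transcription factors of neural progenitors, *Sox1* fell in both fits. *Sox1*, one of the SOXB genes that mark neural progenitors, was at 30.2, 45.6, 83.5 and 53.9 CPM in *Kat6a*+/– and at 12.3, 4.76, 5.71 and 7.31 CPM in *Kat6a*–/– NSPCs. It fell by 2.67 (SE 0.34, FDR 0.00024), and by 1.96 and 2.97 within litters 4633 and 4746. All 4 tested SOXB genes passed with weights and 2 without, with a median log2 fold-change of −0.86 and −0.68. *Sox21* fell by 0.96 (SE 0.15, FDR 0.00063) and did so in both fits. *Sox2* was at 412, 415, 487 and 403 CPM in *Kat6a*+/– and at 249, 436, 255 and 344 CPM in *Kat6a*–/– NSPCs, with *Kat6a*–/– replicate 2 inside the *Kat6a*+/– range (log2 fold-change −0.66, SE 0.11, FDR 0.0012 with and 0.090 without weights). *Sox3* passed with weights only (log2 fold-change −0.76, SE 0.22, FDR 0.019). Without *Kat6a*–/– replicate 1 the weighted fit called 1 SOXB gene and without replicate 3 it called 0.

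Of 9 other tested SOX genes 7 fell with weights and 2 without, and 0 rose, with 0 called in the weighted fits without *Kat6a*–/– replicate 1 or 3. *Sox4*, a factor of newborn neurons, was at 976, 985, 1320 and 1024 CPM in *Kat6a*+/– and at 459, 686, 579 and 726 CPM in *Kat6a*–/– NSPCs (log2 fold-change −0.86, SE 0.15, FDR 0.0014). *Sox6* passed with weights only (log2 fold-change −0.98, SE 0.17, FDR 0.0013).

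Patterning genes of the dorsal telencephalon were lower in part. Of 21 tested members 12 fell and 1 rose with weights, and 9 fell and 0 rose without, against 18.5% and 7.39% of all tested genes that fell in the same fits. In 7 members all *Kat6a*–/– libraries lay below all *Kat6a*+/– libraries, and 1 member was called without *Kat6a*–/– replicate 1 and 0 without replicate 3. *Otx1*, a homeobox gene of the forebrain, was at 34.3, 31.2, 45.9 and 63.3 CPM in *Kat6a*+/– and at 9.31, 15.6, 13.6 and 21.4 CPM in *Kat6a*–/– NSPCs (log2 fold-change −1.55, SE 0.22, FDR 0.00040). *Meis2*, which encodes a TALE homeodomain factor, was at 119, 101, 163 and 153 CPM in *Kat6a*+/– and at 43.2, 84.1, 48.7 and 75.8 CPM in *Kat6a*–/– NSPCs (log2 fold-change −1.34, SE 0.18, FDR 0.00031). The progenitor factor *Nr2e1* fell by 0.86 (SE 0.12) and the cortical homeobox gene *Emx2* by 0.48 (SE 0.10, FDR 0.0042). *Dmrta2*, a cortical patterning factor, did not pass with weights (log2 fold-change −0.37, SE 0.15, FDR 0.074) and passed without (−0.59, FDR 0.042), with all *Kat6a*–/– libraries below all *Kat6a*+/– libraries.

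Genes of the ventral telencephalon and of interneurons are few and low in these dorsal cultures, and 6 of 10 tested members fell with weights and 4 without. In the weighted fits without *Kat6a*–/– replicate 1 or 3, 0 were called. *Gsx2* was at 0.657, 2.45, 0.607 and 0.735 CPM in *Kat6a*+/– and at 0.138, 0, 0 and 0.128 CPM in *Kat6a*–/– NSPCs. *Sp9* was at 1.01, 3.58, 3.25 and 0.267 CPM in *Kat6a*+/– and at 1.38, 0.105, 0 and 0.0642 CPM in *Kat6a*–/– NSPCs, with ranges that overlapped, and passed with weights only (FDR 0.026 with and 0.10 without).

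In the Notch pathway, which keeps progenitors undifferentiated through HES factors, the receptor, a feedback inhibitor and the main effector were lower. Of 19 tested members 10 fell and 2 rose with weights, and 7 fell and 1 rose without. In 8 members all *Kat6a*–/– libraries lay below all *Kat6a*+/– libraries, and 1 member was called without *Kat6a*–/– replicate 1 and 1 without replicate 3. The receptor gene *Notch1* was at 591, 574, 814 and 564 CPM in *Kat6a*+/– and at 267, 410, 304 and 460 CPM in *Kat6a*–/– NSPCs (log2 fold-change −0.98, SE 0.14, FDR 0.00039). The effector *Hes5* was at 9.67, 19.03, 29.4 and 10.8 CPM in *Kat6a*+/– and at 0.690, 2.15, 1.50 and 3.27 CPM in *Kat6a*–/– NSPCs (log2 fold-change −3.10, SE 0.50, FDR 0.00090). The feedback inhibitor gene *Nrarp* fell by 2.46 (SE 0.35), from between 20.5 and 48.8 CPM to between 3.04 and 7.57 CPM. Among the ligands, *Dll3* fell by 2.71 (SE 0.58, FDR 0.0042). *Jag2* rose, from 1.67, 2.19, 0.662 and 1.80 CPM to 18.1, 4.92, 10.8 and 3.34 CPM (log2 fold-change 2.68, SE 0.45, FDR 0.0012).

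Of 9 tested proneural and intermediate progenitor genes 4 fell and 1 rose with weights, and 3 fell and 0 rose without, and 1 fell without *Kat6a*–/– replicate 1 and 0 without replicate 3. *Insm1*, a factor of basal progenitors, was at 43.6, 121, 120.1 and 43.3 CPM in *Kat6a*+/– and at 5.04, 5.60, 5.47 and 13.3 CPM in *Kat6a*–/– NSPCs (log2 fold-change −3.33, SE 0.44, FDR 0.00030). *Eomes*, the marker of intermediate progenitors, was at 7.46, 8.68, 15.4 and 2.74 CPM in *Kat6a*+/– and at 0.828, 0.628, 1.02 and 1.99 CPM in *Kat6a*–/– NSPCs (log2 fold-change −2.70, SE 0.41, FDR 0.00062). *Kat6a*+/– replicates 2 and 3 were the highest for *Insm1* and all *Kat6a*–/– libraries lay below the *Kat6a*+/– libraries in both genes. In the weighted fit without *Kat6a*–/– replicate 3 neither passed (FDR 0.070 and 0.076). In the unweighted fit without it both passed (FDR 0.0047 and 0.017).

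Genes for the neuronal cytoskeleton and maturation were mixed. Of 21 tested members 9 fell and 0 rose with weights, and 5 fell and 0 rose without. In the weighted fits without *Kat6a*–/– replicate 1 or 3, 0 were called. Without weights, 4 to 6 fell when any 1 library was left out. *Dcx*, a microtubule protein of migrating neurons, was at 26.7, 30.03, 11.8 and 13.8 CPM in *Kat6a*+/– and at 0.966, 7.75, 1.62 and 7.70 CPM in *Kat6a*–/– NSPCs (log2 fold-change −3.39, SE 0.57, FDR 0.0012). The neuronal RNA-binding protein genes *Elavl2*, *Elavl3* and *Elavl4* had log2 fold-changes of −1.60 (SE 0.27), −1.78 (SE 0.29) and −3.17 (SE 0.45), all called, and *Stmn1* fell by 0.92 (SE 0.15). *Tubb3*, which encodes neuronal βIII-tubulin, was at 63.9, 52.5, 38.0 and 32.9 CPM in *Kat6a*+/– and at 62.1, 32.0, 45.5 and 40.4 CPM in *Kat6a*–/– NSPCs, with overlapping ranges (log2 fold-change −0.11, SE 0.25, FDR 0.75).

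The largest fall by the naming rule was in *Cadps*, which primes neuropeptide vesicles for release. It was at 26.9, 6.17, 25.9 and 63.3 CPM in *Kat6a*+/– and at 0.552, 4.45, 0.961 and 2.76 CPM in *Kat6a*–/– NSPCs (log2 fold-change −4.45, SE 0.49, FDR 7.9e-05). *Myt1*, a zinc finger factor of differentiating neurons, fell by 4.10 (SE 0.56, FDR 0.00036), and *Dcc*, the netrin receptor gene, by 2.81 (SE 0.41, FDR 0.00053). Over all tested genes 18.5% fell and 19.1% rose with weights, and 7.39% fell and 4.72% rose without. Of 31 tested synapse and channel genes 10 fell and 5 rose with weights, and 3 fell and 2 rose without. In the weighted fits 1 fell and 1 rose without *Kat6a*–/– replicate 1 and 0 passed without replicate 3. Among those that rose was *Gria4*, a glutamate receptor gene (log2 fold-change 0.87, SE 0.15, FDR 0.0014). The delta protocadherin gene *Pcdh9* rose by 0.85 (SE 0.14, FDR 0.0012), and of its 9 tested family members 5 rose and 1 fell with weights, and 2 rose and 0 fell without. In the weighted fits 0 family members were called without *Kat6a*–/– replicate 1 or 3.

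Glial genes did not move together. Of 20 tested astrocyte genes 6 fell and 3 rose with weights, and 3 fell and 2 rose without, and the median log2 fold-change changed sign, from −0.23 with to 0.34 without weights. *Gfap*, the astrocyte intermediate filament gene, was at 872, 237, 457 and 345 CPM in *Kat6a*+/– and at 148, 1879, 256 and 986 CPM in *Kat6a*–/– NSPCs, and the *Kat6a*–/– libraries lay on both sides of the *Kat6a*+/– range (log2 fold-change −0.92 with and 0.28 without weights, FDR 0.19 and 0.83). *Aldh1l1*, an astrocyte folate enzyme gene, fell by 1.94 (SE 0.34, FDR 0.0014), and *Cd44*, a hyaluronan receptor gene of astrocyte precursors, rose by 1.68 (SE 0.22, FDR 0.00031). Of 12 tested genes of the oligodendrocyte lineage 5 fell and 1 rose with weights, and 5 fell and 0 rose without. *Pdgfra*, the growth factor receptor gene of oligodendrocyte precursors, was at 41.7, 43.3, 63.1 and 41.4 CPM in *Kat6a*+/– and at 5.45, 8.96, 9.19 and 14.7 CPM in *Kat6a*–/– NSPCs (log2 fold-change −2.34, SE 0.35, FDR 0.00054). In this lineage *Ugt8a*, a myelin lipid enzyme gene at 2.59 to 3.54 CPM in *Kat6a*+/– NSPCs, fell by 2.65 (SE 0.70), *Olig1* fell by 0.51 (SE 0.15, FDR 0.021), and *Cspg4*, which encodes NG2, passed with weights only (log2 fold-change 1.66, SE 0.32, FDR 0.0023 with and 0.16 without). In the weighted fits without *Kat6a*–/– replicate 1 or 3, 0 members of either list were called. Without weights, leaving out any 1 library left 2 to 5 astrocyte genes called as lower and 1 to 3 as higher. In the oligodendrocyte lineage it left 1 to 5 genes called as lower and 0 to 1 as higher.

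Extracellular matrix genes were higher in *Kat6a*–/– NSPCs with weights, with the highest levels in replicates 1 and 3. Summed collagens were at 885, 1661, 995 and 967 CPM in *Kat6a*+/– and at 3209, 870, 4331 and 2203 CPM in *Kat6a*–/– NSPCs. Replicate 4 thus lay above and replicate 2 below the *Kat6a*+/– range, whereas in the summed fibronectin and matricellular genes replicate 4 lay within it. Of 17 tested collagens 13 rose and 1 fell with weights, and 1 rose and 1 fell without, and the median log2 fold-change was 1.59 with and 0.94 without weights. *Col5a2* was at 259, 400.3, 283 and 329 CPM in *Kat6a*+/– and at 1383, 203, 1790 and 804 CPM in *Kat6a*–/– NSPCs, with replicate 2 below the *Kat6a*+/– range (log2 fold-change 2.31, SE 0.36, FDR 0.00072 with and 0.13 without weights). *Col12a1* was at 158, 245, 171 and 137 CPM in *Kat6a*+/– and at 422, 266, 516 and 381 CPM in *Kat6a*–/– NSPCs and rose in both fits (1.50, SE 0.17, FDR 0.00010). Of 30 tested fibronectin and matricellular genes 18 rose with weights and 3 without. *Sparc*, a collagen-binding matricellular protein gene, passed with weights only (log2 fold-change 1.16, SE 0.21, FDR 0.0015). Of 21 tested plasminogen activators, metalloproteases and their inhibitors 16 rose with weights and 5 without, among them the inhibitor genes *Timp3* (1.31, SE 0.17, FDR 0.00026) and *Serpine2* (0.93, SE 0.16, FDR 0.0011). In these 3 lists 0 members were called as higher in the weighted fits without *Kat6a*–/– replicate 1 or without replicate 3. Without weights, leaving out any 1 library left 1 to 9 collagens called as higher. It left 0 to 12 fibronectin and matricellular genes and 2 to 12 of the protease and inhibitor list.

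Markers of fibroblasts and meningeal cells, which also make matrix, moved with these genes. Of 20 listed markers 11 were tested, and 7 rose with weights, 2 without, and 0 in the weighted fits without *Kat6a*–/– replicate 1 or 3. Their summed level was 224, 366, 226 and 239 CPM in *Kat6a*+/– NSPCs, against 672, 221, 703 and 480 CPM in *Kat6a*–/– NSPCs, with *Kat6a*–/– replicate 2 below the *Kat6a*+/– range. *Col1a1*, which is in this list and in the collagens, was at 10.6, 65.3, 7.99 and 11.5 CPM in *Kat6a*+/– and at 177, 9.11, 142 and 100.2 CPM in *Kat6a*–/– NSPCs (FDR 0.0034 with and 0.18 without weights). *Thy1* and *Prrx1* had FDRs of 0.0022 and 0.00026 with weights, and of 0.041 and 0.050 without. Whether the share of such cells had a part in the rise of matrix genes was not tested.

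*Cdkn2a* was among the 10 largest rises by the naming rule and, as given above, kept its call without *Kat6a*–/– replicate 1 or 3. Others of these 10 did not in the weighted fits. *Igfbp7*, a secreted IGF-binding protein gene, was at 5.19, 5.97, 2.76 and 7.55 CPM in *Kat6a*+/– and at 82.6, 7.75, 62.9 and 20.1 CPM in *Kat6a*–/– NSPCs (log2 fold-change 3.39, SE 0.51, FDR 0.00058). *Lgr5*, an R-spondin receptor gene, was at 1.43, 3.38, 1.16 and 0.200 CPM in *Kat6a*+/– and at 17.9, 3.82, 12.8 and 4.75 CPM in *Kat6a*–/– NSPCs (3.22, SE 0.63, FDR 0.0025). The LIM protein gene *Fhl2* rose by 2.82 (SE 0.39), *Pamr1* by 2.81 (SE 0.40), *Ahnak2* by 2.70 (SE 0.42), the myosin gene *Myo1d* by 2.67 (SE 0.37) and *Fgf18* by 2.63 (SE 0.34). In these 7 genes *Kat6a*–/– replicates 1 and 3 were the highest and all 4 lay above the *Kat6a*+/– range. In the weighted fits none passed without replicate 1 (FDR 0.062 to 0.34) or without replicate 3 (FDR 0.11 to 0.43). Without weights *Pamr1* (FDR 0.0091 and 0.011) and *Fgf18* (0.027 and 0.027) passed in both omissions, and the others in neither. In the Wnt pathway 9 of 25 tested genes rose and 6 fell with weights, and 2 rose and 3 fell without. Without *Kat6a*–/– replicate 1, 2 members fell and 0 rose, and without replicate 3, 0 passed. The ligand gene *Wnt7a* was at 91.9, 67.5, 112 and 100.5 CPM in *Kat6a*+/– and at 9.86, 49.6, 12.4 and 31.3 CPM in *Kat6a*–/– NSPCs (log2 fold-change −2.73, SE 0.28, FDR 5.3e-05), and the feedback inhibitor gene *Nkd1* fell by 1.04 (SE 0.15, FDR 0.00039).

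HOX genes, which give positional identity behind the forebrain and are silent in the telencephalon, were near 0 in *Kat6a*+/– NSPCs, and none of the 26 listed genes passed the filter on low counts. The summed counts of the listed genes were 2, 7, 1 and 2 in *Kat6a*+/– and 82, 83, 47 and 10 in *Kat6a*–/– NSPCs, or 0.193 ± 0.183 and 3.11 ± 1.95 CPM (SD, n = 4), and the ranges did not overlap. With the HOX genes outside the list they were 2, 9, 7 and 2 against 85, 83, 47 and 18. *Hoxa4* had 28, 8, 5 and 0 counts and *Hoxa5* had 23, 12, 6 and 0 counts in *Kat6a*–/– NSPCs, and both had 0 counts in all 4 *Kat6a*+/– libraries. Proliferating *Kat6a*–/– libraries held 8, 11, 15 and 9 counts of the listed genes, against 0, 0, 0 and 1 in proliferating *Kat6a*+/– libraries.

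Some genes of the KAT6A and MLL complexes and some imprinted growth genes were lower. Over all tested genes 18.5% fell and 19.1% rose with weights, and 7.39% fell and 4.72% rose without. In the KAT6A and MLL complexes 0 members were called in the weighted fits without *Kat6a*–/– replicate 1 or 3. Of 8 tested KAT6A complex genes, *Kat6a* included, 3 fell with weights and 0 without, and *Kat6a* fell by 0.49 (SE 0.10, FDR 0.0026) with weights and had a log2 fold-change of −0.32 (FDR 0.14) without. Of 8 tested genes of the MLL and menin complex 4 fell with weights and 2 without, among them *Psip1*, the chromatin tether gene (log2 fold-change −0.49, SE 0.06, FDR 0.00023), and *Ash2l*, a core subunit gene (−0.30, SE 0.07, FDR 0.0050). Among 14 tested imprinted growth genes 5 fell and 3 rose with weights, and 2 fell and 0 rose without, and 1 fell without *Kat6a*–/– replicate 1 and 0 without replicate 3. *Nnat*, which encodes neuronatin, was at 343, 351, 440 and 246 CPM in *Kat6a*+/– and at 29.2, 84.9, 50.05 and 114 CPM in *Kat6a*–/– NSPCs (log2 fold-change −2.74, SE 0.34, FDR 0.00022), and *Peg3* fell by 1.24 (SE 0.17, FDR 0.00038). *Igf2* was at or below 1.67 CPM in all 8 libraries and did not pass (FDR 0.74).

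Of 27 tested interferon response genes 8 rose and 1 fell with weights, and 4 rose and 0 fell without, and 1 rose without *Kat6a*–/– replicate 1 and 0 without replicate 3. *Ifitm3*, an antiviral membrane protein gene, was at 20.4, 30.1, 26.9 and 18.2 CPM in *Kat6a*+/– and at 97.2, 72.8, 67.1 and 29.5 CPM in *Kat6a*–/– NSPCs (log2 fold-change 1.56, SE 0.25, FDR 0.00097). Of 14 tested genes for MHC class I presentation 5 rose with weights and 1 without, among them *Tapbp* (0.61, SE 0.09, FDR 0.00039). Of 81 cytosolic ribosomal protein genes 8 rose and 1 fell with weights and 0 passed without, and of 83 nuclear genes for oxidative phosphorylation 12 rose with weights and 1 without, against 19.1% and 4.72% of all tested genes, although the median of the latter list, 0.12, was −0.01 when scaled by library totals. In these 3 lists 0 members were called in the weighted fits without *Kat6a*–/– replicate 1 or 3.

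Set beside the loss of the first allele, 0 of 13339 genes passed in differentiating *Kat6a*+/– vs. *Kat6a*+/+ NSPCs by limma, and 1926 had an unadjusted p under 0.05, against 6391 in *Kat6a*–/– vs. *Kat6a*+/– NSPCs. The 2 comparisons share the *Kat6a*+/– libraries. The median log2 fold-change of the G2 and mitosis genes was −0.07 for the first and −2.70 for the second allele, that of the S phase genes −0.21 and −1.37, and that of the p53 targets 0.08 and 0.96. Other lists had larger medians for the first allele. The ventral telencephalon and interneuron list was at −1.59 and −1.66, and the fibronectin and matricellular list at 0.549 and 0.93. Proneural and intermediate progenitor genes were at −0.40 and −0.184, and imprinted growth genes at −0.435 and −0.179. *Mki67* had a log2 fold-change of −0.05 (SE 0.25, FDR 0.95; 0.12 without weights) in *Kat6a*+/– vs. *Kat6a*+/+ NSPCs, at 218 ± 54.2 CPM in *Kat6a*+/+ and 235 ± 53.9 CPM in *Kat6a*+/– against 24.1 ± 17.1 CPM in *Kat6a*–/– NSPCs (SD, n = 4). *Cdkn2a*, for which the mean in *Kat6a*+/+ NSPCs was 14.2 CPM, had a log2 fold-change of 0.85 in *Kat6a*+/– vs. *Kat6a*+/+ NSPCs. *Hes5* had one of −1.48 with and −0.91 without weights, *Dll3* of −1.56 and −0.79, *Eomes* of −1.59 and −1.34 and *Sp9* of −2.56 and −2.31, with 0 of the 4 called with weights.

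In proliferating NSPCs the same contrast gave 1813 called genes of 12276 (14.8%), 1040 higher (8.47%) and 773 lower (6.3%). The difference between the effect in differentiating and in proliferating NSPCs was tested as an interaction over all 24 libraries, and passed in 741 of 13590 genes (5.45%), 234 with a higher (1.72%) and 507 with a lower (3.73%) estimate in differentiating NSPCs. By the library names, *Kat6a*–/– replicates 2, 3 and 4 came from the same embryos in both conditions. Differentiating *Kat6a*+/– replicate 1 likewise shared its embryo with proliferating *Kat6a*+/– replicate 3. The model blocked on litter and left this pairing by embryo out. The 2 conditions were extracted with different RNA kits, and kit and condition cannot be told apart in the levels, though each effect lies within 1 kit. Of the 50 G2 and mitosis genes 47 had a lower interaction estimate that passed, and 5 were called as lower in proliferating NSPCs. Among S phase genes 25 of 46 passed the interaction, and among Fanconi and homologous recombination genes 16 of 21. In proliferating NSPCs 7 of the S phase genes and 2 of the Fanconi and homologous recombination genes were called as lower. Their medians there were −0.266 and −0.195, and that of the G2 and mitosis genes was −0.267. *Mki67* had a log2 fold-change of −0.17 (SE 0.14, FDR 0.41) in proliferating NSPCs, and its interaction estimate was −3.37 (SE 0.43, FDR 0.00012). Of the 20 p53 targets 7 were called as higher in proliferating NSPCs, against 8.47% of all genes tested there. Their median there was 0.333, and 0 passed the interaction.

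**Figure D4:**
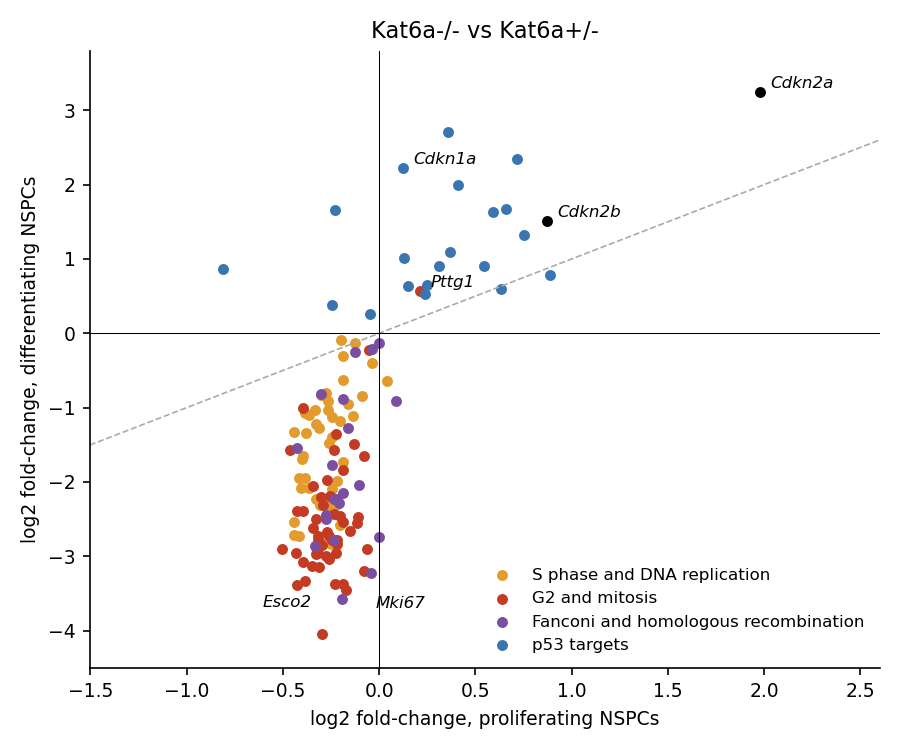
Log2 fold-change, *Kat6a*–/– vs. *Kat6a*+/–, in proliferating (horizontal axis) and differentiating NSPCs (vertical axis), each point 1 gene of 4 lists or *Cdkn2a* and *Cdkn2b* (black), with a dashed line where both are equal. Genes for S phase, mitosis and DNA repair have list medians of −0.266, −0.267 and −0.195 on the horizontal axis and reach −4.05 on the vertical axis, and *Cdkn2a* lies at 1.98 and 3.24.

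Several genes passed in both conditions, with 0 of the following passing the interaction. *Cdkn2a* rose by 1.98 in proliferating and by 3.24 in differentiating NSPCs (interaction 1.08, FDR 0.19). *Sox1* fell by 2.23 and 2.67 (interaction FDR 0.72), *Otx1* by 1.07 and 1.55 (0.66), *Cadps* by 3.84 and 4.45 (1.0) and *Cdkn1b* by 0.71 and 0.60 (0.97). *Pcdh9* rose by 0.76 and 0.85 and *Timp3* by 1.04 and 1.31. An interaction that did not pass does not show that the effects were equal: the standard error of the interaction was 0.47 for *Cdkn2a* and 2.0 for *Cadps*.

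Other genes differed in their effect between the conditions. *Notch1* had a log2 fold-change of 0.09 in proliferating NSPCs (interaction −0.89, FDR 0.0097) and *Insm1* of 0.71 (interaction −4.14, FDR 0.0088). *Peg3* rose by 0.43 in proliferating and fell by 1.24 in differentiating NSPCs (interaction −1.47, FDR 0.00013), and *Olig1* rose by 0.37 and fell by 0.51 (interaction −1.05, FDR 0.0040). *Col12a1* had a log2 fold-change of −0.94 in proliferating NSPCs (FDR 0.19) and an interaction estimate of 2.15 (FDR 0.016). The largest interaction estimates by the naming rule were in *Insm1* and in 5 other genes. *Pramel3c* (−4.62), *Rph3a* (−4.10), *Golga7b* (4.20) and *Bcl3* (5.06) stayed below 3 CPM in all 16 mutant libraries. *Matn4*, a matrix protein gene with an estimate of 5.60, was at 1.37, 1.06, 0.607 and 0.802 CPM in differentiating *Kat6a*+/– and at 3.38, 22.6, 3.90 and 6.54 CPM in differentiating *Kat6a*–/– NSPCs.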

How the data were processed

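RNA (200 ng per library) was made into stranded poly(A) libraries. The authors aligned reads to mm39 with Rsubread and deposited whole-number counts per gene from featureCounts with RefSeq annotation; the strand setting of the counting was not given in the sources used here, so reads of overlapping antisense genes may be included. The deposited counts were used from here on, each library forming 1 replicate of the genotype and condition in its labels. The numbers in the library names were read as litter and embryo, which the sample titles do not state. By that reading p-values measure the spread between embryos of partly shared litters.

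Protein-coding genes without *Xist* and Y-linked genes that passed filterByExpr (edgeR 4.0.16) were scaled by TMM and fitted as log2 CPM (prior count 2) with limma-trend (limma 3.58.1, R 4.3.3), arrayWeights quality weights and robust empirical Bayes moderation on all 12 differentiating libraries. These steps follow the study's methods, but the filter left 13339 genes, which is not the number the study gives, for a reason that was not found. Genes were called at a Benjamini-Hochberg FDR under 0.05. The interaction was fitted over the 24 libraries with limma-voom and duplicateCorrelation by litter, with no term for embryo. CPM are counts per 1000000 of the TMM-scaled library size, or of the library total for HOX genes. Fitted fold-changes follow the weights and can differ from the ratio of mean CPM. The scripts were tested on simulated data. Library depth of 14836869 to 23692125 counts in differentiating and 7826660 to 40838203 in proliferating libraries limits precision for genes near 1 CPM. Chi-square tests over genes found that 0 of the 12 pairs of differentiating libraries within *Kat6a*+/– or within *Kat6a*–/– agreed within sampling noise.

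The comparison and all gene lists were chosen with earlier results of these data known, and lists are described by counts and medians without a test. The genes named were a set of key genes, up to 4 with the smallest p per list, the 10 largest rises and 10 largest falls among 1318 genes (487 higher and 831 lower) that were called with and without weights, had a mean log2 CPM above 1, ranges that did not overlap and the same direction in both litters, and, for the interaction, the 3 highest and 3 lowest called estimates. Some genes that this rule named are not reported here. Alternatives included DESeq2 1.42.0, edgeR's quasi-likelihood test, other scalings, filters and weights, litter and replicate terms, and omission of each library.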

Additional observations from a re-analysis of the deposited data

Results flagged for a closer look

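Within groups of 4 libraries, 19 of 220 groups (8.64%) held a library that stood apart by Dixon's test at 95%, where chance flags about 1 in 20. *Kat6a*–/– replicate 4 was the highest of its group for *Ankle1* (3.59 CPM), *Mcm2* (23.2), *Esco2* (4.24), *Insm1* (13.3) and *Stmn1* (78.5), and all 5 values lay below the *Kat6a*+/– range. *Kat6a*+/– replicate 3 was the highest for *Sox2* (487 CPM), *Sox4* (1320), *Notch1* (814), *Pdgfra* (63.1) and *Psip1* (204). *Kat6a*+/– replicate 2 was the highest for *Gsx2* (2.45 CPM), *Col1a1* (65.3), the summed collagens (1661) and the summed fibroblast and meningeal markers (366). *Kat6a*–/– replicate 1 was the highest for *Sp9* (1.38 CPM) and *Rph3a* (0.897) and the lowest for *Nkd1* (5.59), replicate 2 was the highest for *Peg3* (211), and replicate 3 was the highest for *Orc6* (25.8).

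The effect of losing the second allele differed between differentiating and proliferating NSPCs in 741 genes by the interaction term. Among named genes of the G2 and mitosis list the estimates were −3.37 for *Mki67*, −2.93 for *Top2a*, −2.42 for *Tpx2*, −3.16 for *Cenpf*, −2.29 for *Kif4*, −3.52 for *Kif14*, −3.25 for *Knl1* and −2.73 for *Aurkb*, and outside it they were −3.69 for *Ankle1* and −3.25 for *Pif1*. For replication and repair they were −1.94 for *Mcm2*, −1.75 for *Cdc45*, −2.17 for *Uhrf1*, −2.82 for *Fanca*, −3.22 for *Esco2*, −2.50 for *Brca1* and −2.75 for *Fanci*, and for the inhibitors *Rbl1* and *Cdkn2c* they were −1.69 and −1.33.

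Among neural genes the interaction estimates were −0.80 for *Sox4*, −0.89 for *Notch1*, −2.65 for *Nrarp*, −4.14 for *Insm1*, −2.75 for *Dcc*, −0.61 for *Nfib*, −3.16 for *Ugt8a* and −1.05 for *Olig1*. Estimates were also below 0 for *Nnat* (−2.37), *Peg3* (−1.47), *Psip1* (−0.41), *Rph3a* (−4.10) and *Pramel3c* (−4.62). They were above 0 for *Cd44* (1.25), *Col12a1* (2.15), *Prrx1* (1.12), *Golga7b* (4.20), *Bcl3* (5.06) and *Matn4* (5.60).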

How the results depend on the processing

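The number of genes called in differentiating *Kat6a*–/– vs. *Kat6a*+/– NSPCs, 5007, depended on the library quality weights, on litter as a term and on single *Kat6a*–/– libraries. Without weights it was 1616, with edgeR 1656, with DESeq2 2621, with limma-voom 1491, with every gene that had at least 1 count 3031, with the presence of Y-linked reads as a covariate 1605, and with litter as a fixed term, which leaves 3 residual degrees of freedom, 386. Alternatives chosen after the data were seen gave 2761 genes with weights estimated gene by gene, 873 from the 8 mutant libraries without weights, and 0 with litter fixed and no weights, where 1725 genes had an unadjusted p under 0.05. With the replicate block it was 4203 with and 985 without weights. The replicate numbers do not pair the samples: same-numbered *Kat6a*–/– and *Kat6a*+/– libraries correlated at −0.36, −0.48, −0.20 and −0.15 in their deviations from the group means. Leaving out 1 library gave 243 (without *Kat6a*–/– replicate 3) to 7397 genes (without replicate 2) over the weighted and unweighted fits. The weights stopped before convergence in 6 of 23 weighted fits, namely those without each of the 4 *Kat6a*–/– libraries, with litter fixed and with the replicate block, so that their counts are provisional. RLE size factors, library totals, a prior count of 0.5, the 8 mutant libraries with weights and litter as a random block gave 4353 to 5899 genes.

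The interaction called 741 genes, 2422 with voomWithQualityWeights, 567 with the replicate block within condition, and 486 (without differentiating *Kat6a*+/– replicate 3) to 1690 (without differentiating *Kat6a*–/– replicate 2) when 1 library was left out. Of 96 named genes 83 kept their direction and their side of the threshold without weights, 94 with weights estimated gene by gene, 48 with litter fixed, 40 without *Kat6a*–/– replicate 1 and 31 without replicate 3. The sign changed in 3 genes, of which 0 were called. *Gfap* was at 0.28 without weights and with the unweighted replicate block, 0.77 with edgeR, 0.78 with DESeq2, 0.26 with limma-voom, 0.27 from the 8 mutant libraries without weights, 0.34 with the Y-linked covariate, and −1.29 to 0.86 when 1 library was left out. *Igf2* was at 0.0878 with edgeR, 0.0904 with DESeq2, 0.00465 with limma-voom, 0.13 with the Y-linked covariate and −0.52 to 0.44 when 1 library was left out. *Tubb3* was at 0.0557 with the weighted replicate block and −0.40 to 0.175 when 1 library was left out. The cause of these changes was not tested. At this depth the HOX genes did not pass the filter on low counts and were not tested.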

Other observations

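Groups that the text above leaves out held some called genes. Over all tested genes 18.5% fell and 19.1% rose with weights, and 7.39% fell and 4.72% rose without. Of 20 tested YAP and TEAD targets 11 rose and 2 fell with quality weights, and 2 rose and 2 fell without, with a median log2 fold-change of 0.36 and 0.16. Of 27 tested hypoxia and glycolysis genes 13 rose and 1 fell with weights, and 2 rose and 1 fell without (median 0.37 and 0.27), whereas the median in proliferating NSPCs was −0.81 with 0 called as higher and 2 as lower. Of 19 tested feedback genes of FGF and ERK signalling 11 rose and 1 fell with weights, and 0 rose and 1 fell without. Of 19 tested BMP and ID genes 7 fell and 3 rose with weights, and 1 fell and 1 rose without. In these 4 lists 0 members were called in the weighted fits without *Kat6a*–/– replicate 1 or 3.

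Clustered protocadherin genes, 46 of them tested, included 4 that rose and 3 that fell with weights in differentiating NSPCs, 1 that rose and 0 that fell without, and 17 that rose and 0 that fell in proliferating NSPCs, and 0 passed the interaction. Of 38 tested replication-dependent histone genes 1 rose and 3 fell with weights, and 2 rose and 2 fell without, with 1 called (as lower) without *Kat6a*–/– replicate 1 and 0 without replicate 3. Their median log2 fold-change was −0.04 with and 0.35 without weights. Most transcripts of these genes lack a poly(A) tail, and the libraries were selected for poly(A). Of 24 tested cholesterol synthesis genes 2 rose and 1 fell with weights and 0 passed without, with a median of 0.07 (−0.05 when scaled by library totals), and in proliferating NSPCs 0 rose and 5 fell. In the protocadherin and cholesterol lists 0 members were called in the weighted fits without *Kat6a*–/– replicate 1 or 3.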
